A study of Homo sapiens with 24 samples.

Results

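The mitochondrial ribosomal protein genes were followed in HEK293T cells, a human embryonic kidney line, after transfection with reagents that lower or raise FMR4, a long non-coding RNA transcribed antisense to FMR1. A gene was taken as a member when its symbol is MRPL or MRPS followed by a number, with or without a letter A to C, on a probe set annotated with that symbol alone, and where a gene has several such probe sets the one of highest mean was used. This gave 73 genes, 48 named MRPL and 25 named MRPS, of 18414 genes with a symbol of their own on the array. The 8 conditions were FMR4 siRNA with its control, CTRL siRNA, and FMR4 pcDNA3.1 (the vector with FMR4) with its own control, CTRL pcDNA3.1 (the vector alone), each collected at 6 h and at 24 h, with 3 arrays per condition and 24 in all. The siRNAs were given at 40 nM with Lipofectamine RNAiMAX and the plasmids at 0.5 µg with Lipofectamine 2000CD, so nucleic acid and reagent change together between the siRNA and plasmid arms and cannot be told apart. The labels give no other treatment and no untransfected cells. The design text calls the 3 arrays of a condition biological replicates, with 3 technical replicates pooled into each. All come from a single line and the sources do not say how the replicates were separated, so p-values measure the spread between these samples alone. No probe set carries the name FMR4, so the extent of its knockdown or overexpression was not read here.

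Mitochondria keep a small genome, which encodes core subunits of the respiratory chain and the ATP synthase, and translate its messages on a ribosome of their own. The RNAs of that ribosome come from the mitochondrial genome, whereas all of its proteins are encoded in the nucleus, made in the cytosol and imported. Some proteins descend from bacterial ribosomal proteins and others were added in mitochondria, and they assemble into a large subunit, which forms peptide bonds, and a small subunit, which decodes the message. The names are not a perfect guide, because MRPS18A and MRPS30 sit in the large subunit. By structure, 50 of the 73 genes encode large subunit proteins, 30 with and 20 without a bacterial counterpart, and 23 encode small subunit proteins, 14 with and 9 without one.

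The values are log2 expression after GC-RMA, a normalization that corrects each probe for background by its base composition. All 73 genes lay above 5.99, the upper quartile of 408 olfactory receptor and keratin-associated genes that stand for silent genes. The mean over 24 arrays ran from 7.23 for MRPS18C to 12.8 for MRPL37, with a median of 10.5, but levels of different probe sets are not comparable. The genes varied little. The 3 arrays of a condition had a median SD of 0.058, and the 8 condition means of a gene spanned a median of 0.228 on the log2 scale. The span was widest for MRPS35 (0.585), MRPS34 (0.43), MRPL40 (0.43) and MRPL32 (0.414), and narrowest for MRPL41 (0.0842), MRPL9 (0.0956) and MRPL37 (0.0976). All 8 HEK293T markers checked were above the silent level, with means of 7.39 to 12.1. Of the markers of other cells, 3 of 5 for blood, 2 of 4 for endothelium, 2 of 4 for liver and 3 of 3 for muscle were above it too, and PTPRC, LYZ, PECAM1, KDR, ALB and SERPINA1 were not. Their means reached 6.82 for CD14 of blood, 6.38 for CDH5 of endothelium, 7.68 for APOA1 of liver and 6.78 for MYH7 of muscle, and APOA1 thus lay above PAX2, the dimmest HEK293T marker. The summed level ran over the 24 arrays from 27.9 to 28.8 for blood, 23.2 to 24.2 for endothelium, 24.3 to 25.3 for liver and 19.1 to 20.0 for muscle. In bulk RNA, fewer cells of a kind and less RNA per cell cannot be told apart.

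Promoter windows from 250 bases before to 50 bases after the RefSeq start site were available for 66 of the 73 genes. They were searched for motifs, which the choice by name did not use. The protein-coding windows set beside them were not limited to genes expressed in these cells. The ETS motif CCGGAAG, read on both strands, was present in 28 windows, or 42.4%, against 14.2% of the windows of 15843 protein-coding genes. ETS-family factors include GABP, also called nuclear respiratory factor 2, which is known for its sites in genes of mitochondrial proteins. The YY1 motif AAGATGGCG was present in 12 windows, or 18.2%, against 2.74% of protein-coding windows. YY1 is a zinc finger factor whose motif often lies just downstream of the start site. The motif of NRF1, another regulator of nuclear genes for mitochondrial proteins, was searched as GCGCATGCG and found in 3 windows, or 4.55%, against 2.76%. The SP1 letters GGGCGG were in 59.1% against 58.5%, the CCAAT letters in 30.3% against 36.4%, and TATAAA in 3.03% against 9.63%. The end of the ETS motif and the start of the YY1 motif share 3 letters, but matches of the pair overlapped in 0 of the 66 windows, which holds for these windows alone. A match is only a run of letters. Of the 28 windows with the ETS motif, 10 belonged to genes lower in siRNA than in plasmid arrays at 6 h, and so did 10 of the 38 without it. Between 6 and 24 h, 6 of the 28 rose and 8 fell, against 3 and 6 of the 38. Of the 12 genes with the YY1 motif, 3 were lower between the arms at 6 h, against 17 of the 54 without it. Over time 0 of the 12 rose and 3 fell, against 9 and 11 of the 54.

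The windows printed here, from GRCh38.p14, are written 5′ to 3′. They belong to the pair that rose most between 6 and 24 h (MRPS34, MRPL28) and the pair with a window that fell most (MRPS35, MRPS12). MRPS18A and MRPL16 were added as a pair among the other genes whose windows hold most kinds of the motifs searched, TATAAA aside. MRPS18A has both an ETS and a YY1 match, and MRPL16 had the second largest difference between the arms at 6 h. Capitals mark ETS, YY1 and NRF1 matches on either strand.
MRPS34, chr16:1773085-1773384, minus strand: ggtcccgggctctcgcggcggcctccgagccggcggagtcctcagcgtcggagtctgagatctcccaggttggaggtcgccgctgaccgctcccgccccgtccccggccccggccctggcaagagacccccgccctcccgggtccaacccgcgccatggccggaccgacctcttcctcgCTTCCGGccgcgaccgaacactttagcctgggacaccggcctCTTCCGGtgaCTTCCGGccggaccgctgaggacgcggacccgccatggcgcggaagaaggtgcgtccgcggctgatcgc
MRPL28, chr16:370489-370788, minus strand: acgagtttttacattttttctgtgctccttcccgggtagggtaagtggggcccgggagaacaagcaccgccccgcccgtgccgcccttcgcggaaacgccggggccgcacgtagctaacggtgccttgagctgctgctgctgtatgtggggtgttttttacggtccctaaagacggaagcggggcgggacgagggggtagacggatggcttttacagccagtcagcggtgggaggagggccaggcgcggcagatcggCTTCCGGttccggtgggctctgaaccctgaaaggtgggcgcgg
MRPS35, chr12:27710582-27710881, plus strand: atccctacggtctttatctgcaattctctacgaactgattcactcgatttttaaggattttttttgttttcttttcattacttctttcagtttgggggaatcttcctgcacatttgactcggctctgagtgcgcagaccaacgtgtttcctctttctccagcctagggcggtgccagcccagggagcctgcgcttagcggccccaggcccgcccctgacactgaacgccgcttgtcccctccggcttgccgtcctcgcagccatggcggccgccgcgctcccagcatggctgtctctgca
MRPS12, chr19:38930694-38930993, plus strand: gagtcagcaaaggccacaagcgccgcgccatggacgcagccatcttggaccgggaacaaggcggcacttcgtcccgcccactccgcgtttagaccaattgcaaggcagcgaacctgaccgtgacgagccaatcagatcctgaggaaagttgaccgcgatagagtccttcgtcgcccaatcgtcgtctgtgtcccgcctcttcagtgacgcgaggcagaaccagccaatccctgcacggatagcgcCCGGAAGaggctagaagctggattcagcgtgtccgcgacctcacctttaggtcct
MRPS18A, chr6:43687742-43688041, minus strand: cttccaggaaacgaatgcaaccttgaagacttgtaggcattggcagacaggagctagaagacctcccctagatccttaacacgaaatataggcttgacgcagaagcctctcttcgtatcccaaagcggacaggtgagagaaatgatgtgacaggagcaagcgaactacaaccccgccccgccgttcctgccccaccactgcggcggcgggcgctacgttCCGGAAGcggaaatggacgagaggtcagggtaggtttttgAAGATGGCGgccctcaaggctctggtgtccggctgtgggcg
MRPL16, chr11:59810729-59811028, minus strand: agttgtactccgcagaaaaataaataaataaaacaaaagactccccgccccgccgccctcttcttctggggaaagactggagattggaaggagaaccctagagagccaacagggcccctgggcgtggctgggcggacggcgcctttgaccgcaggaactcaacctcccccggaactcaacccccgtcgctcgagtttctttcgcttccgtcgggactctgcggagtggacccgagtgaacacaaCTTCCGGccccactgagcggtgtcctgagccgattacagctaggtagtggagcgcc
The MRPS34 window holds 3 ETS matches just upstream of the start, MRPL28, MRPS12 and MRPL16 hold 1 each, MRPS18A holds 1 ETS match and 1 YY1 match, and MRPS35 holds none of the capitalised motifs.

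At 6 h many of the genes were lower in siRNA-transfected than in plasmid-transfected cells. The 6 siRNA arrays were compared with the 6 plasmid arrays of that time with limma, a linear model of each gene fitted to all 24 arrays, at a Benjamini-Hochberg adjusted p under 0.05 over 21214 named probe sets. Of the 73 genes, 23 (31.5%) were lower in siRNA-transfected cells and 0 were higher, where 11.5% of all genes were lower and 7.71% were higher. At an unadjusted p under 0.05, limma gave 1 higher and 40 lower, where 15.8% of all genes were higher and 18.5% lower. Since these genes are well expressed, the share was also taken over the 11826 genes at least as bright as the dimmest of them, a cut made once the values were known, and 16.6% of those were lower and 8.59% higher. The median difference of the 73 genes was -0.10 and 63 of them lay below 0, while the median of all genes was 0.01.

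The called genes belong to both subunits. In the large subunit, 12 of the 30 genes with a bacterial counterpart and 4 of the 20 without one were lower. In the small subunit, 2 of 14 and 5 of 9 were lower. MRPS34, a mitochondria-specific protein of the small subunit, measured 11.06, 11.18 and 10.76 in CTRL siRNA, 11.28, 10.99 and 10.56 in FMR4 siRNA, 11.19, 11.31 and 11.26 in CTRL pcDNA3.1 and 11.31, 11.24 and 11.29 in FMR4 pcDNA3.1. The plasmid arrays sat close together and most siRNA arrays lay below them, except FMR4 siRNA replicate 1. Its difference was the largest of the called genes (-0.30 ± 0.083 SE, adjusted p = 0.0170). Without replicate 3 of CTRL siRNA at 6 h its adjusted p was 0.0615.

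MRPL16, whose bacterial counterpart helps to shape the peptidyl transferase centre, measured 10.43, 10.59 and 10.38 in CTRL siRNA, 10.80, 10.56 and 10.22 in FMR4 siRNA, 10.74, 10.81 and 10.79 in CTRL pcDNA3.1 and 10.73, 10.76 and 10.78 in FMR4 pcDNA3.1. Again 5 of the 6 siRNA arrays were below every plasmid array, and the difference was -0.27 ± 0.065 (adjusted p = 0.00845). MRPS33, another small subunit protein of mitochondria alone, was lower by a similar amount (-0.27 ± 0.056, adjusted p = 0.00402). MRPL28, a large subunit protein with a bacterial counterpart, measured 11.54, 11.54 and 11.40 in CTRL siRNA and 11.63, 11.57 and 11.22 in FMR4 siRNA against 11.72, 11.77 and 11.66 in CTRL pcDNA3.1 and 11.75, 11.72 and 11.65 in FMR4 pcDNA3.1. All its siRNA arrays were below all its plasmid arrays (-0.23 ± 0.059, adjusted p = 0.0112).

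Among the other called genes, MRPS18B (-0.24), MRPL2 (-0.22), MRPS25 (-0.22), MRPL39 (-0.21), MRPL13 (-0.21) and MRPL12 (-0.21) were also lower. MRPL12 is the protein of the flexible stalk and is also known to bind the mitochondrial RNA polymerase. The arms did not overlap for MRPL28, MRPS14, MRPL15 and MRPL42. These 4 of the 73 genes (5.48%) were lower without overlap, against 2.74% of all genes and 4.05% of the genes as bright. The 3 proteins related to a single bacterial small subunit protein did not share a call. MRPS18A of the large subunit was lower (-0.16 ± 0.056, adjusted p = 0.0488), MRPS18B was lower (-0.24 ± 0.068, adjusted p = 0.0208), and MRPS18C, the dimmest probe set, had a difference of -0.14 ± 0.081 that did not pass. The call of MRPS18A was lost without any 1 of 8 arrays, with an adjusted p up to 0.154 without replicate 3 of CTRL siRNA at 6 h, and that of MRPS18B without any 1 of 3, up to 0.0725 without the same array. Whether MRPS18A and MRPS18B differ from MRPS18C in this respect was not tested.

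**Figure D1:**
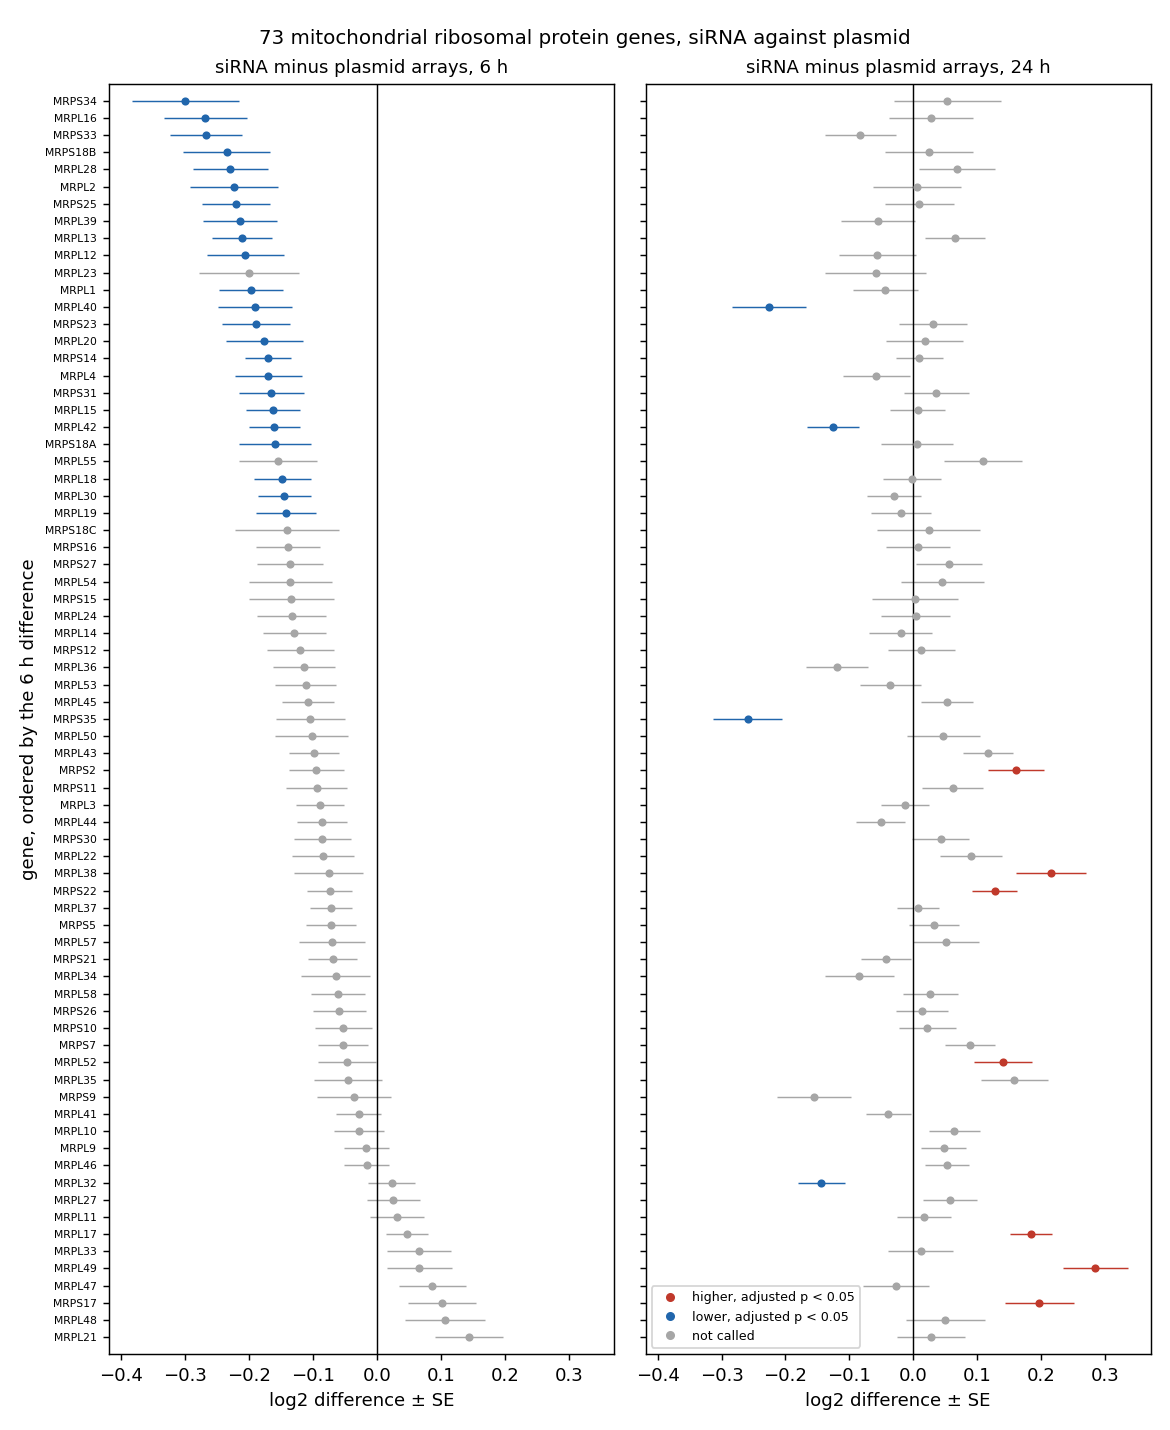
Log2 difference of the 73 mitochondrial ribosomal protein genes between siRNA and plasmid arrays at 6 h (left) and 24 h (right), 6 arrays against 6 at each time, as point ± SE from limma, with genes in the order of their 6 h difference. At 6 h, 63 of the 73 points lie below 0 and 23 are called lower; at 24 h, 7 are called higher and 4 lower.

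The size of this group difference rested on single arrays. The median deviation of the 73 genes from their 24-array means was -0.05, 0.00 and -0.10 on the 3 CTRL siRNA arrays at 6 h and 0.03, -0.07 and -0.14 on the 3 FMR4 siRNA arrays. All 6 plasmid arrays at 6 h lay between 0.03 and 0.06. FMR4 siRNA replicate 1 stood with the plasmid arrays, having 56 of the 73 genes above their means, whereas replicates 2 and 3 had 14 each. Without replicate 1 of FMR4 siRNA at 6 h, 38 genes were lower and 2 were higher. The count fell to 10 without replicate 3 of CTRL siRNA at 6 h, to 12 without replicate 3 of FMR4 siRNA at 6 h, to 14 without replicate 3 of FMR4 pcDNA3.1 at 6 h and to 15 without replicate 3 of CTRL pcDNA3.1 at 6 h. It was 3 when the model held only the 12 arrays of that time, and 2 when the control siRNA and empty vector conditions alone were compared. Shares of all genes called in these settings are not given, so a change particular to these genes cannot be told from a general one. Of the 23 genes, 10 kept their call whichever single array was left out. They were MRPL1, MRPL13, MRPL15, MRPL16, MRPL28, MRPL39, MRPL42, MRPS14, MRPS25 and MRPS33.

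Other nuclear genes for mitochondrial proteins were also lower in siRNA arrays at 6 h. Over all genes 11.5% were lower and 7.71% higher, and of the genes as bright 16.6% and 8.59%. Of 71 nuclear subunits of the respiratory chain and ATP synthase, 25 were lower and 0 were higher, with a median of -0.09. NDUFA5, a subunit of complex I, was at -0.32 ± 0.064 (adjusted p = 0.00311) and NDUFB5 at -0.28 ± 0.057 (adjusted p = 0.00376). Of 16 mitochondrial aminoacyl-tRNA synthetases 7 were lower, of 15 translation factors 5, of 12 genes of mitochondrial transcription and the nucleoid 5, and of 25 assembly and rRNA modification genes 8, with 1 of these last higher. Of 9 chaperones and proteases 4 were lower and 1 was higher, of 9 regulators of mitochondrial biogenesis 1 was lower, and of the 4 mitochondrial ribosomal proteins of other names, DAP3, CHCHD1, PTCD3 and GADD45GIP1, 0 were called. Of the 67 cytosolic ribosomal protein genes 3 were higher and 2 lower, with a median of -0.01. Among the 8 HEK293T markers 3 were higher and 1 was lower, their summed level running from 76.5 to 79.6 over the 24 arrays. Of the blood, endothelial, liver and muscle markers CD14 (0.23) and TTR (0.23) were higher and LYZ (-0.13) was lower. The 408 silent genes also moved with the arm, with 27 higher, 1 lower and a median of 0.05, and the part of these changes in the difference was not tested. None of the subunits encoded in mitochondrial DNA has a named probe set here, so the messages that this ribosome translates were not followed.

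**Figure D2:**
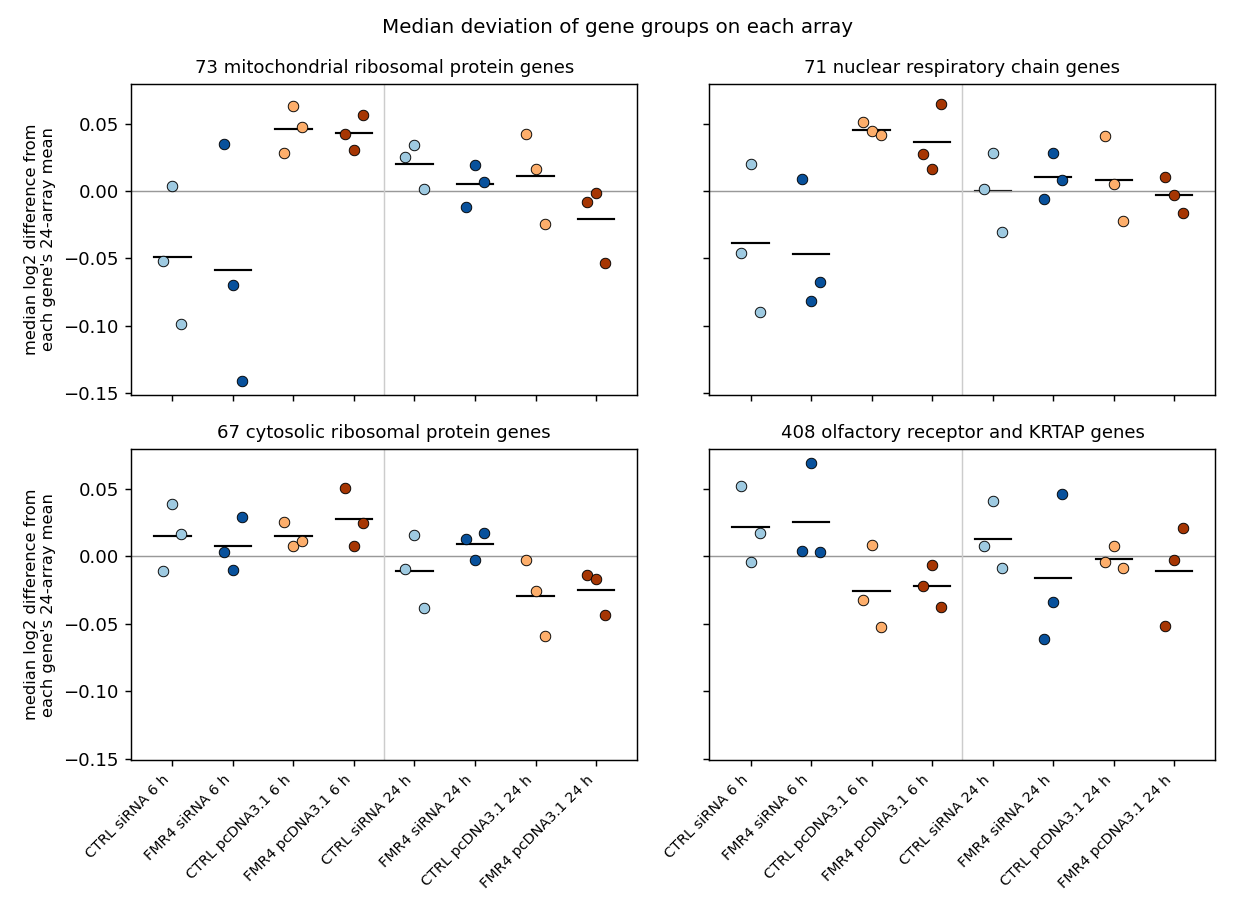
Median log2 deviation from each gene's 24-array mean, over 73 mitochondrial ribosomal protein genes, 71 nuclear respiratory chain and ATP synthase genes, 67 cytosolic ribosomal protein genes and 408 silent (olfactory receptor and keratin-associated) genes, with 1 point per array and a bar at the mean of the 3 arrays of a condition. Among siRNA arrays at 6 h the mitochondrial ribosomal protein median runs from -0.14 to 0.03, while the plasmid arrays of that time lie between 0.03 and 0.06.

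At 24 h the median difference between the arms was 0.02, and 7 genes were higher and 4 lower in siRNA arrays, where 6.6% of all genes were higher and 5.68% lower (9.94% and 6.71% of the genes as bright). MRPL49, a large subunit protein without a bacterial counterpart, measured 10.13, 10.07 and 10.11 in CTRL siRNA and 10.15, 10.03 and 10.08 in FMR4 siRNA against 9.92, 9.87 and 9.70 in CTRL pcDNA3.1 and 9.86, 9.78 and 9.73 in FMR4 pcDNA3.1. All siRNA arrays were above all plasmid arrays, and the difference was the largest of the 7 (0.28 ± 0.051, adjusted p = 0.000631). MRPL17, a large subunit protein with a bacterial counterpart, was higher without overlap too (0.18 ± 0.033, adjusted p = 0.000649), and so was MRPS22 of the small subunit (0.13 ± 0.035, adjusted p = 0.0192). These 3 of the 73 (4.11%) stand beside 3.32% of all genes and 5.09% of the genes as bright that were higher without overlap. MRPL38 (0.22), MRPS17 (0.20), MRPS2 (0.16) and MRPL52 (0.14) were higher with overlapping arrays.

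The 4 lower genes at 24 h were MRPS35 (-0.26 ± 0.054, adjusted p = 0.00249), MRPL40 (-0.23 ± 0.058, adjusted p = 0.0114), MRPL32 (-0.14 ± 0.037, adjusted p = 0.0121) and MRPL42 (-0.13 ± 0.040, adjusted p = 0.0429). MRPS35 belongs to the small subunit and the others to the large one. For MRPL32 the low siRNA arrays were those of CTRL siRNA alone. Between the control conditions alone 3 genes were higher and 1 was lower, and of the 4 just named only MRPL32 kept its call, with MRPL40 at an adjusted p of 0.911. The calls of MRPL17, MRPL38, MRPL49, MRPS35, MRPL40 and MRPL32 were kept without any single array. MRPL42 lost its call without any 1 of 8 arrays and MRPL52 without any 1 of 9, with adjusted p up to 0.111 without replicate 2 of CTRL pcDNA3.1 at 24 h and 0.115 without replicate 3 of CTRL pcDNA3.1 at 24 h. MRPS17 and MRPS22 lost theirs without any 1 of 3 arrays, up to 0.0596 and 0.0708, both without replicate 3 of FMR4 pcDNA3.1 at 24 h, and MRPS2 without replicate 2 of CTRL pcDNA3.1 at 24 h (0.0563). The count of 7 became 4 without replicate 2 of CTRL pcDNA3.1 at 24 h and 4 without replicate 3 of FMR4 pcDNA3.1 at 24 h. Under median centring 10 genes were higher and 2 lower. MRPS18A, MRPS18B and MRPS18C had differences of 0.01, 0.03 and 0.02 that did not pass.

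The change of the arm difference between 6 and 24 h was tested directly as an interaction. Its median over the 73 genes was 0.14 and 61 lay above 0, against -0.02 for all genes. Relative to plasmid arrays, 8 genes rose in siRNA arrays and 1 fell, where 6.62% of all genes rose and 4.42% fell (9.94% and 4.58% of the genes as bright). MRPL28 (0.30 ± 0.083, adjusted p = 0.0266), MRPL16 (0.30 ± 0.092, adjusted p = 0.0427), MRPL13 (0.28 ± 0.066, adjusted p = 0.0119) and MRPS14 (0.18 ± 0.052, adjusted p = 0.0299) were lower in the siRNA arm at 6 h and did not pass at 24 h. MRPL38 (0.29 ± 0.077), MRPS2 (0.26 ± 0.061) and MRPS22 (0.20 ± 0.050) did not pass at 6 h and were higher at 24 h, and MRPL43 (0.21 ± 0.055) passed at neither time. MRPL32 went the other way (-0.17 ± 0.052, adjusted p = 0.0440). Its low siRNA arrays at 24 h were those of CTRL siRNA (10.29, 10.30 and 10.22), while FMR4 siRNA (10.52, 10.55 and 10.59) lay within the range of the plasmid arrays. The count of 8 became 24 under median centring, 4 under quantile normalization, 26 without replicate 1 of FMR4 siRNA at 6 h, 17 without replicate 2 of CTRL siRNA at 6 h and 5 without replicate 3 of CTRL siRNA at 6 h. MRPL32 lost its call without any 1 of 17 arrays (up to 0.0819 without replicate 3 of CTRL pcDNA3.1 at 24 h), MRPL16 without any 1 of 18 (0.0836), MRPS14 without any 1 of 5 (0.0621) and MRPL28 without any 1 of 2 (0.0566), the last 3 values all without replicate 3 of CTRL siRNA at 6 h.

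Between 6 and 24 h, averaged over the 4 transfections, the genes moved in both directions. Of the 73, 9 (12.3%) rose and 15 (20.5%) fell, where 18.2% of all genes rose and 12.5% fell (24.1% and 17.7% of the genes as bright), and the median change was 0.02, against 0.01 for all genes. Changes were small, from -0.24 to 0.19 on the log2 scale, or at most 1.18-fold. The 4 classes of protein all held rises and falls. Among large subunit genes 2 rose and 5 fell of the 30 with a bacterial counterpart, and 3 rose and 6 fell of the 20 without one. Among small subunit genes 2 rose and 3 fell of 14, and 2 rose and 1 fell of 9.

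MRPS35 of the small subunit fell most. Its 6 h values were 10.39, 10.44 and 10.48 in CTRL siRNA, 10.35, 10.32 and 10.37 in FMR4 siRNA, 10.60, 10.51 and 10.48 in CTRL pcDNA3.1 and 10.34, 10.48 and 10.57 in FMR4 pcDNA3.1. At 24 h it measured 10.26, 10.18 and 10.16 in CTRL siRNA, 10.01, 10.10 and 9.73 in FMR4 siRNA, 10.41, 10.36 and 10.31 in CTRL pcDNA3.1 and 10.30, 10.40 and 10.23 in FMR4 pcDNA3.1. Within each transfection except FMR4 pcDNA3.1 the 24 h arrays lay below the 6 h arrays, and FMR4 siRNA at 24 h was the lowest condition, and the mean change was -0.24 ± 0.038 (adjusted p = 4.34e-05). MRPL15 (-0.23 ± 0.030, adjusted p = 5.57e-06) and MRPS12 (-0.22 ± 0.037, adjusted p = 7.98e-05) followed. MRPS12, the counterpart of a bacterial protein of the decoding centre, fell by 0.36 in CTRL pcDNA3.1, where it passed, while its changes were -0.10 in CTRL siRNA, -0.21 in FMR4 siRNA and -0.22 in FMR4 pcDNA3.1.

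Over this time 0.744% of all genes and 1.08% of the genes as bright fell without overlap of the 12 early and 12 late arrays. Among the 24 called genes only MRPL27 did, a protein whose bacterial counterpart reaches the peptidyl transferase centre. Its 6 h values were 9.84, 9.85 and 9.71, then 9.68, 9.72 and 9.83, then 9.75, 9.79 and 9.68, and 9.72, 9.73 and 9.80, for the siRNA pair and then the plasmid pair, the control first in each. The 24 h values in that order were 9.53, 9.59 and 9.52, then 9.57, 9.60 and 9.67, then 9.58, 9.51 and 9.39, and 9.55, 9.59 and 9.54. It was lower in all 4 transfections, with changes between -0.25 and -0.13 and a mean of -0.20 ± 0.030 (adjusted p = 1.53e-05). MRPL58, a peptidyl-tRNA hydrolase that became a large subunit protein, fell by 0.19 ± 0.030 (adjusted p = 4.08e-05), and its changes in the single transfections ran from -0.24 to -0.09. MRPL32, a protein matured by the mitochondrial m-AAA protease, was at -0.17 ± 0.026, with changes from -0.38 in CTRL siRNA to -0.07 in CTRL pcDNA3.1. MRPL52 (-0.16), MRPL54 (-0.16), MRPS17 (-0.16) and MRPL48 (-0.16) completed the 10 largest falls.

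Within single transfections, rises passed in the siRNA conditions alone. MRPS34 (0.19 ± 0.059, adjusted p = 0.0168) changed by 0.38 in CTRL siRNA and 0.35 in FMR4 siRNA, and by 0.01 in CTRL pcDNA3.1 and 0.02 in FMR4 pcDNA3.1. At 24 h it measured 11.41, 11.40 and 11.31 in CTRL siRNA, 11.22, 11.31 and 11.36 in FMR4 siRNA, 11.32, 11.18 and 11.29 in CTRL pcDNA3.1 and 11.27, 11.37 and 11.27 in FMR4 pcDNA3.1, so that the arms overlapped. The change of its arm difference, 0.35 ± 0.118, did not pass (adjusted p = 0.0565). MRPL28 (0.18 ± 0.042, adjusted p = 0.00215) changed by 0.35 and 0.30 in the siRNA conditions and by -0.00 and 0.06 in the plasmid conditions, and for this gene the difference between arms passed. MRPS11 (0.13), MRPS31 (0.13), MRPL49 (0.13), MRPS14 (0.13), MRPL40 (0.12), MRPL43 (0.09) and MRPL30 (0.08) were the other rises in the mean of the 4 transfections. MRPL40 did not rise in FMR4 siRNA, where it measured 10.58, 10.37 and 10.21 at 6 h and 10.25, 10.34 and 10.29 at 24 h.

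**Figure D3:**
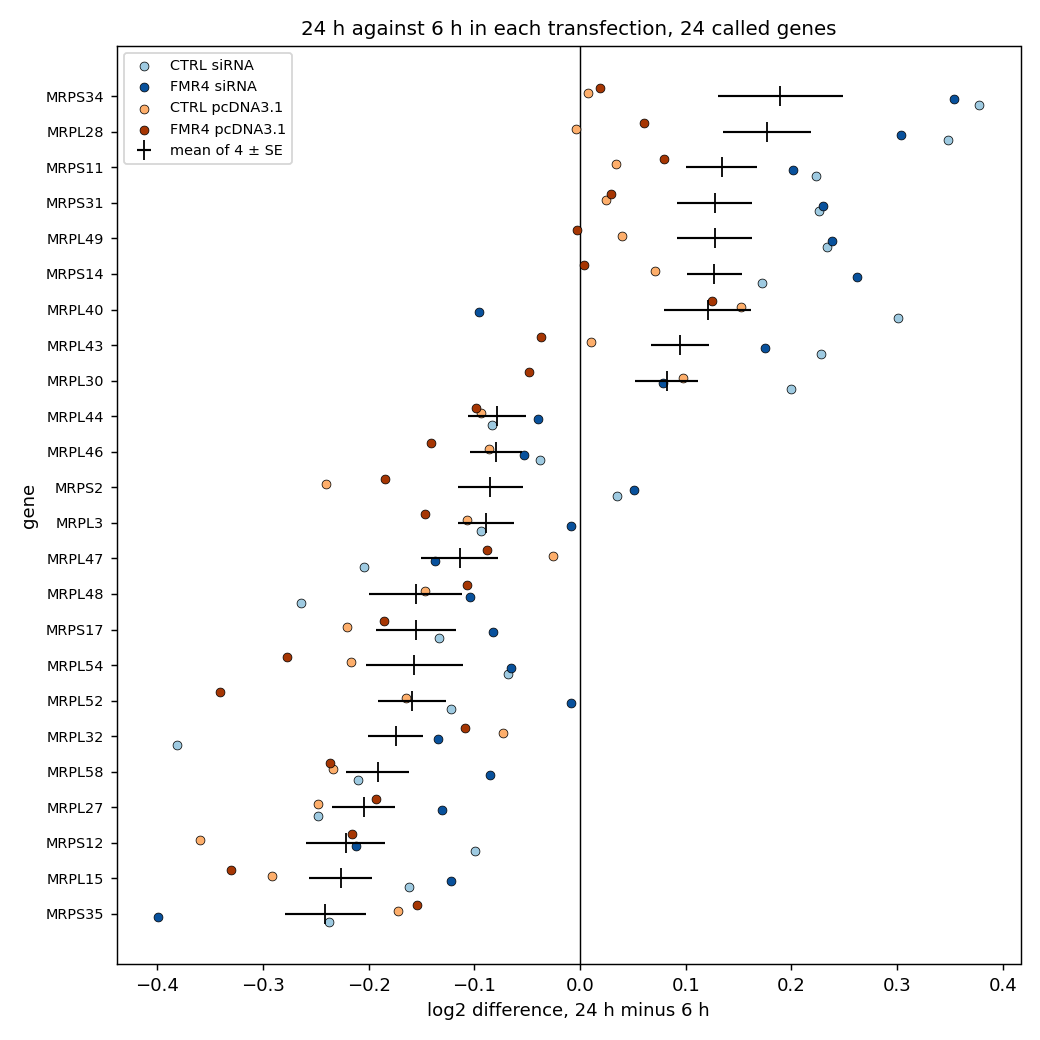
Log2 change from 6 to 24 h of the 24 mitochondrial ribosomal protein genes called in the mean of the 4 transfections, with a coloured point for each transfection (3 arrays against 3) and a black tick with bar for the mean ± SE. For MRPS34, MRPL28, MRPS31 and MRPL49 the siRNA points lie well to the right of the plasmid points, which stand near 0, and MRPL27, MRPL15, MRPS12 and MRPS35 are below 0 in all 4.

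The 4 transfections, tested one by one, gave the following counts. In CTRL siRNA 12 genes rose and 5 fell, with a median of 0.07, where 9.79% of all genes rose and 8.75% fell. In FMR4 siRNA 10 rose and 1 fell, with a median of 0.07, where 12.3% rose and 4.37% fell. In CTRL pcDNA3.1 0 rose and 5 fell, with a median of -0.03, where 3.83% rose and 1.93% fell, and in FMR4 pcDNA3.1 0 rose and 3 fell, with a median of -0.06, where 3.3% rose and 3.03% fell. At an unadjusted p under 0.05 limma gave 0 rises in either plasmid condition, with 10 and 13 falls, where 12.9% of all genes rose and 7.19% fell in CTRL pcDNA3.1 and 10.1% rose and 10.2% fell in FMR4 pcDNA3.1. Of the genes as bright, the adjusted test called 13.8% as rises and 12.1% as falls in CTRL siRNA, 17.9% and 5.45% in FMR4 siRNA, 4.37% and 2.88% in CTRL pcDNA3.1 and 3.83% and 4.45% in FMR4 pcDNA3.1. The 7 rises shared by both siRNA conditions were MRPL28, MRPL43, MRPL49, MRPS11, MRPS14, MRPS31 and MRPS34, and the 2 falls shared by both plasmid conditions were MRPL15 and MRPL58.

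These single-transfection counts, with 3 arrays a side, depended on the arrays. In CTRL siRNA the rises fell to between 2 and 6 without CTRL siRNA 6 h replicates 1 or 3 or any CTRL siRNA 24 h array, and the 5 falls to 2 or 3 without any of these arrays but replicate 1 of CTRL siRNA at 24 h, or without replicate 2 of CTRL siRNA at 6 h. Of the 17 calls only MRPL27, MRPL28, MRPL32 and MRPL43 were kept without any single array. In FMR4 siRNA 21 genes rose without replicate 1 of FMR4 siRNA at 6 h, 1 rose without replicate 3 of FMR4 siRNA at 6 h, 3 without replicate 2 of FMR4 siRNA at 6 h or replicate 2 of FMR4 siRNA at 24 h, and 5 without replicate 1 of FMR4 siRNA at 24 h. The single fall there became 2 without any one FMR4 siRNA 6 h array. In CTRL pcDNA3.1 the 5 falls became 3 without any one 6 h array and 2 without 24 h replicate 2 or 3. Quantile normalization gave 3 rises and 5 falls in FMR4 siRNA, and a model of its 6 arrays alone gave 0 of each. In the mean of the 4 transfections 20 of the 24 calls were kept without any single array. The exceptions were MRPL30, MRPS2, MRPL44 and MRPL40, lost without any 1 of 18, 16, 7 and 6 arrays, with adjusted p up to 0.0843 without replicate 1 of FMR4 siRNA at 24 h, 0.0800 without replicate 2 of CTRL pcDNA3.1 at 24 h, 0.0661 without replicate 3 of FMR4 pcDNA3.1 at 24 h and 0.0590 without replicate 2 of CTRL siRNA at 24 h. The 9 rises became 19 without replicate 1 of FMR4 siRNA at 6 h.

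MRPS18A (0.06 ± 0.039), MRPS18B (0.07 ± 0.048) and MRPS18C (-0.03 ± 0.057) did not pass between 6 and 24 h. The lists beside the ribosome are given next to the shares over all genes, of which 18.2% rose and 12.5% fell over this time. Of the genes as bright, 24.1% rose and 17.7% fell, and no list was tested against these shares. Of the 67 cytosolic ribosomal protein genes 12 fell and 0 rose, with a median of -0.03, led by RPL7L1 (-0.21), RPS23 (-0.30) and RPS21 (-0.18), of which RPL7L1 is a ribosome biogenesis protein rather than a subunit. Of the 71 respiratory chain and ATP synthase genes 8 rose, among them NDUFS1 (0.19) and NDUFB5 (0.22) of complex I, and 3 fell, among them NDUFA5 (-0.22). Of 25 assembly and rRNA modification genes 3 rose and 7 fell, with FASTKD2 (-0.24), RPUSD4 (-0.24) and NGRN (-0.22), proteins that handle the large mitochondrial rRNA, among the falls.

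The next counts too stand beside 18.2% of all genes that rose and 12.5% that fell. Of 16 mitochondrial aminoacyl-tRNA synthetases 3 rose and 3 fell, the falls being MARS2 (-0.30), WARS2 (-0.18) and YARS2 (-0.20). The elongation factor GFM1 fell (-0.18) and the recycling factor MRRF rose (0.16), which were the only calls among 15 translation factors. In the nucleoid list 2 rose and 4 fell of 12, with TOP1MT (-0.15), TWNK (-0.16) and MTERF2 (0.21) among them. The proteases YME1L1 (-0.18) and LONP1 (0.18) were the calls among 9 chaperones and proteases. Among 9 regulators of mitochondrial biogenesis 1 rose and 4 fell. PPARGC1A, a coactivator known to drive mitochondrial biogenesis, rose by 0.72 ± 0.054 (adjusted p = 2.94e-09), from a mean of 7.12 to 7.84, while PPRC1 (-0.20), MYC (-0.22), GABPB1 (-0.14) and GABPA (-0.14) fell, the last a pair that forms the ETS-family complex GABP. The rise of PPARGC1A was 0.39 in CTRL siRNA and 0.43 in FMR4 siRNA, against 1.09 in CTRL pcDNA3.1 and 0.98 in FMR4 pcDNA3.1. In FMR4 siRNA PPRC1 was at -0.03, MYC at 0.03, GABPA at -0.05 and GABPB1 at -0.01, and none of them passed. GABPA and GABPB1 did not pass in any single transfection. Of the 4 mitochondrial ribosomal proteins of other names, CHCHD1 (0.18) and PTCD3 (0.09) of the small subunit rose and 0 fell.

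**Figure D4:**
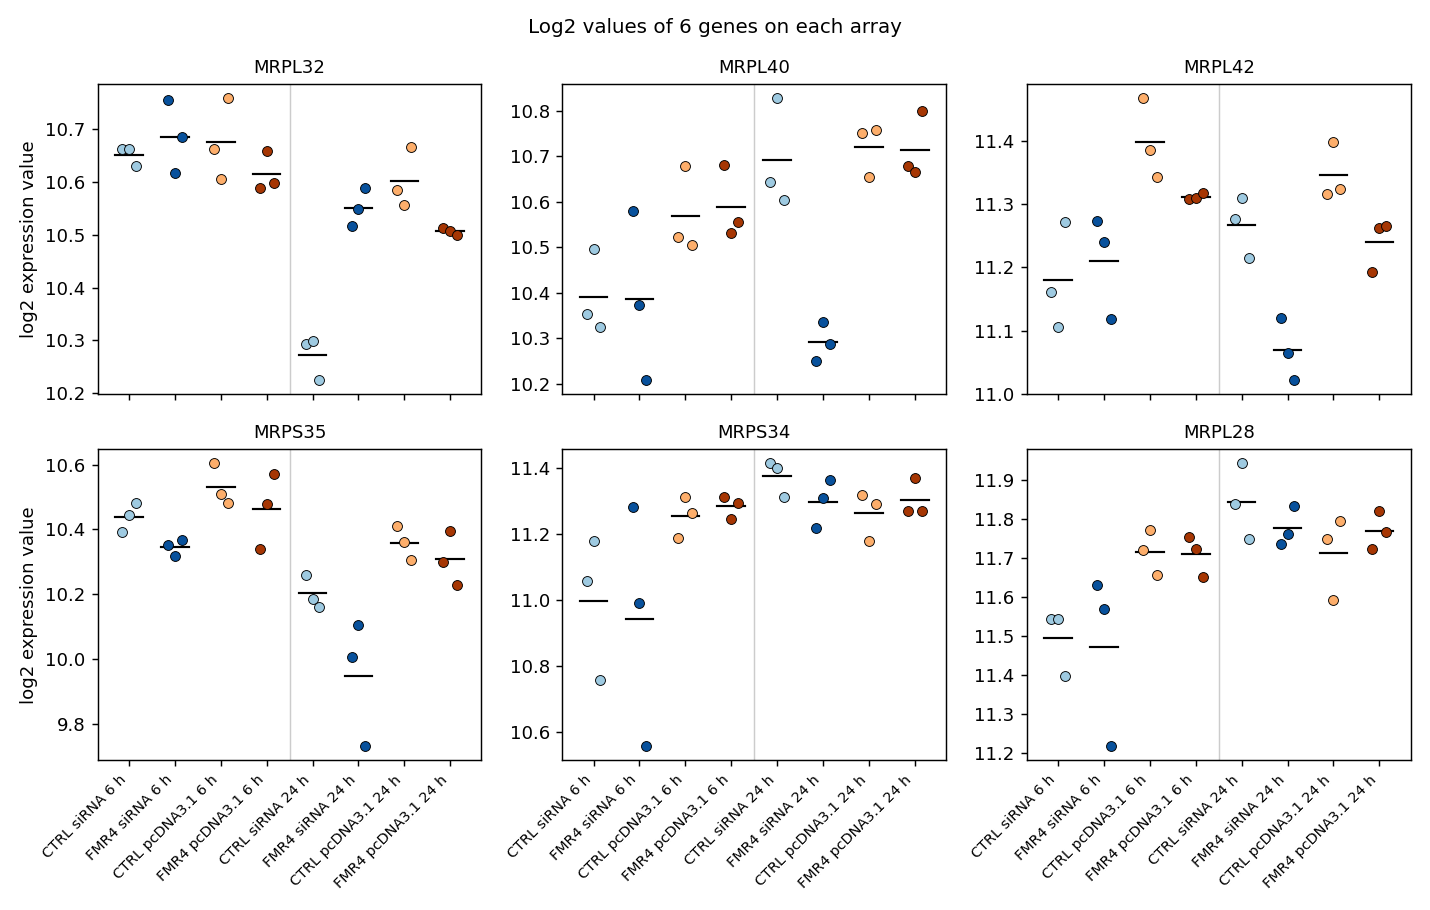
Log2 expression value of MRPL32, MRPL40, MRPL42, MRPS35, MRPS34 and MRPL28 on each array, 3 points per condition with a bar at their mean, 6 h to the left and 24 h to the right of the grey line; each panel has its own vertical scale, which does not start at 0. CTRL siRNA at 24 h is the lowest condition for MRPL32 and FMR4 siRNA at 24 h the lowest for MRPL40, MRPL42 and MRPS35, and siRNA arrays at 6 h are low and spread for MRPS34 and MRPL28.

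The comparison at which the study aimed, FMR4 reagent against its own control, gave 3 calls among these genes, all with FMR4 siRNA at 24 h. At that time 5.88% of all genes were called in either direction and 3 of 73, or 1 higher and 2 lower, were called here, a share near the background. Of the 4 mitochondrial ribosomal proteins of other names, which are not members, DAP3 was higher with FMR4 siRNA at 24 h and 0 were lower. Its difference from CTRL siRNA was 0.30 ± 0.068 (limma adjusted p = 0.00837). MRPL40, a large subunit protein encoded beside HIRA on chromosome 22, measured 10.64, 10.83 and 10.60 in CTRL siRNA and 10.25, 10.34 and 10.29 in FMR4 siRNA. The groups did not overlap, and the plasmid arrays of that time, at 10.75, 10.65 and 10.76 without FMR4 and 10.68, 10.67 and 10.80 with it, stood with CTRL siRNA. With FMR4 siRNA it was lower than with CTRL siRNA (-0.40 ± 0.082, adjusted p = 0.00315).

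MRPL32 measured 10.29, 10.30 and 10.22 in CTRL siRNA and 10.52, 10.55 and 10.59 in FMR4 siRNA, and so was higher with FMR4 siRNA (0.28 ± 0.052, adjusted p = 0.00137). Here it was CTRL siRNA that stood apart, since the plasmid arrays measured 10.59, 10.56 and 10.67 without FMR4 and 10.51, 10.51 and 10.50 with it. At 6 h all 12 arrays of MRPL32 lay between 10.59 and 10.76. MRPL42, a large subunit protein of mitochondria alone, was lower (-0.20 ± 0.057, adjusted p = 0.0393), with 11.28, 11.31 and 11.21 in CTRL siRNA and 11.12, 11.06 and 11.02 in FMR4 siRNA. The calls of MRPL32 and MRPL40 were kept without any single array, and that of MRPL42 was lost without any 1 of 4 (the lower calls being then 1 without CTRL siRNA 24 h replicates 1 or 2 or replicate 3 of FMR4 siRNA at 24 h), with an adjusted p up to 0.178 without replicate 2 of CTRL siRNA at 24 h. MRPS35, whose groups did not overlap either, was at -0.26 ± 0.076 with an adjusted p of 0.0513.

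At 6 h FMR4 siRNA gave 0 calls by limma among the 73 genes, where 0.0597% of all genes were called. At an unadjusted limma p under 0.05 it also gave 0, where 275 of all 18414 genes were higher and 444 lower. The lowest p in each direction belonged to MRPL55 (-0.13 ± 0.087) and MRPL9 (0.06 ± 0.050). FMR4 pcDNA3.1 gave 0 calls by limma at 6 h and 0 at 24 h, where 0% of all genes were called at either time. At an unadjusted limma p under 0.05 it gave 1 of the 73 at 6 h, where 178 of all 18414 genes were higher and 194 lower. By the same rule it gave 3 of the 73 at 24 h, where 118 of all genes were higher and 484 lower. At 6 h the lowest p belonged to MRPL10 (-0.13 ± 0.056, unadjusted p = 0.0332) and MRPL52 (0.11 ± 0.064). At 24 h it belonged to MRPL30 (-0.16 ± 0.060, unadjusted p = 0.0121) among the values below 0 and to MRPS2 (0.10 ± 0.061) among the values above 0. The medians of the 73 genes were -0.01 and -0.02 for FMR4 siRNA at 6 and 24 h and 0.00 and -0.03 for FMR4 pcDNA3.1.

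Across all 12 comparisons 46 of the 73 genes were called at least once, where 49.7% of all genes and 65% of the genes as bright were, and 27 were not called in any. Those 27 include MRPL37, MRPL41, MRPL9 and MRPL11, whose condition means moved least, and also MRPL55 and MRPS18C.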

How the data were processed

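HEK293T cells were profiled on 24 Affymetrix arrays, labelled Human Gene 1.0 ST where the study's methods name version 2.0. The authors normalized the scans with GC-RMA and deposited log2 values for 33297 probe sets, used here as they stand; scan files and a depth were not analysed here, and the number of arrays limits precision. Probe sets were named from the platform annotation, giving 19460 with 1 symbol, 1754 with several and 12083 with none, and 7 symbols were updated. One linear model over all 8 conditions was fitted with limma 3.58.1 in R 4.3.3, and p-values were adjusted by Benjamini-Hochberg over 21214 named probe sets, at a threshold of 0.05; the procedure was tested on simulated data. Members and gene lists were chosen with earlier results of these data known, and so no list was tested as a set. Genes named are the called members of largest change (up to 10 each way), those of lowest p where none was called, the 3 MRPS18 genes, and up to 3 called genes of other lists; array values are shown for those on which results turn. Further names outside this rule were chosen after their values were seen. Alternatives were quantile normalization, median centring, removal of dim probe sets, the mean over probe sets, only the arrays compared, control conditions only, a replicate block and leaving out each array. Promoter windows are those of RefSeq on GRCh38.p14.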

Additional observations from a re-analysis of the deposited data

Results flagged for a closer look

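For 9 of the 73 genes the siRNA minus plasmid difference was not the same at 24 h as at 6 h. The call rests on the interaction term of the limma model, adjusted over all named probe sets. The difference rose for 8 genes and fell for 1, where 6.62% of all genes rose and 4.42% fell. Of the genes as bright, 9.94% rose and 4.58% fell. The count of 9 is thus near the background, and it was not tested against it. On the log2 scale, the difference changed by 0.298 for MRPL28, 0.296 for MRPL16, 0.290 for MRPL38, 0.276 for MRPL13, 0.255 for MRPS2, 0.215 for MRPL43, 0.201 for MRPS22 and 0.180 for MRPS14, and by -0.167 for MRPL32. For MRPL32 the low siRNA arrays at 24 h were those of CTRL siRNA alone. The calls of MRPL13, MRPL38, MRPL43, MRPS2 and MRPS22 were kept without any single array. Groups of 3 arrays are too small for a check of single outlying arrays.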

How the results depend on the processing

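Counts of called genes rested on few arrays, which number 3 per condition, and causes were not tested. The share of all genes called in each alternative setting is not given, here or above. A count that moved may therefore reflect a change across the array rather than in these genes. Leaving out 1 array at a time, the mean change from 6 to 24 h gave 7 to 19 rises and 13 to 15 falls, CTRL siRNA 2 to 15 and 2 to 4, FMR4 siRNA 1 to 21 and 1 to 2, and falls of 2 to 4 in CTRL pcDNA3.1 and 2 to 3 in FMR4 pcDNA3.1. The arms at 6 h gave 0 to 2 higher and 10 to 38 lower, at 24 h 4 to 8 and 3 to 4, their change 5 to 26 and 0 to 1, and FMR4 siRNA at 24 h 1 to 1 and 1 to 2. Samples were not paired by replicate number in the main model. Same-number correlations were taken within a transfection over time and between an FMR4 reagent and its control, not between the arms. No comparison so checked had every one over 0.1, but replicate 3 of the siRNA conditions at 6 h reached 0.458. Whether replicates of the same number shared a batch was not tested. The replicate block gave 8 rises and 11 falls in the mean change, 7 rises in CTRL siRNA, and 5 rises and 2 falls in FMR4 siRNA. It also gave 3 falls in CTRL pcDNA3.1, 22 lower between the arms at 6 h, 0 falls in the change of the arm difference and 1 lower with FMR4 siRNA at 24 h. With quantile normalization FMR4 siRNA gave 3 rises and 5 falls, the arms at 6 h 2 higher and 16 lower, and the change of the arm difference 4 rises. Median centring gave 24 rises and 0 falls in that change and 10 higher and 2 lower between the arms at 24 h. Without dim probe sets there were 2 falls in FMR4 siRNA, 1 higher between the arms at 6 h and 15 rises in the change of the arm difference. With only the arrays compared, FMR4 siRNA gave 0 rises and 0 falls from 6 to 24 h, the arms at 6 h 3 lower, and FMR4 siRNA at 24 h 1 lower. Control conditions only gave 2 lower at 6 h and 3 higher and 1 lower at 24 h. Of the alternative values of single named genes, 1331 kept direction and call, 159 lost the call and 11 changed sign. None of these 11 was called. Without single arrays MRPS18C ran from -0.0631 to 0.00427 in the mean change, and for the arms at 24 h MRPS18A ran from -0.0174 to 0.0288, MRPS18B from -0.0015 to 0.050 and MRPS18C from -0.0360 to 0.0988. For the arms at 24 h MRPS18A was at -0.0141 with quantile normalization and MRPS18C at -0.1215 with control conditions only.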

Other observations

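Some of the genes start head to head with another gene, within 1000 bases on opposite strands, and share the stretch between the starts. There were 16 such pairs with a measured protein-coding neighbour, 45 to 990 bases apart in RefSeq, a feature looked up after the values were seen. Between 6 and 24 h both partners were called the same way in 0 pairs and opposite ways in 3. Over this time 18.2% of all genes rose and 12.5% fell. The share among head-to-head pairs of all genes was not counted, so these counts only describe the pairs. MRPL46 of the large subunit was at -0.08 and MRPS11 of the small subunit at 0.13, with 320 bases between their starts on chromosome 15. MRPL40 was at 0.12 and HIRA, a histone chaperone, at -0.11, and MRPS2 was at -0.08 and PIERCE1 at 0.42. In 6 pairs only the mitochondrial ribosomal protein gene was called, among them MRPL27 beside EME1, MRPL32 beside PSMA2 and MRPS12 beside SARS2, the mitochondrial seryl-tRNA synthetase. In 2 pairs only the neighbour was, CYB5RL (0.27) beside MRPL37 and SKA3 (0.10) beside MRPL57, and in 5 neither was. Both partners were lower in siRNA arrays at 6 h in 1 pair, MRPS18B (-0.24) and PPP1R10 (-0.30).

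Probe sets whose annotation joins a mitochondrial ribosomal protein gene to another symbol were not counted as members. From 6 to 24 h the one for MRPS6 and SLC5A3 was at -0.27 (limma adjusted p = 1e-06), that for MRPS28 and TPD52 at -0.21 (limma adjusted p = 0.000973), and those holding MRPL51 and MRPS24 were both at 0.04. MRPL36 has another probe set under its symbol alone, which differed in direction between the arms at 6 h. The set used was below 0, and the other was at 0.02 ± 0.069 (limma adjusted p = 0.833).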
